A study of Homo sapiens with 12 samples.

Results

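P-TEFb (positive transcription elongation factor b) was followed at the level of its own transcripts through 9 genes, which were chosen by name for their known roles. They are the kinase gene CDK9, its cyclin genes CCNT1 and CCNT2, the inhibitor genes HEXIM1 and HEXIM2, the 7SK RNA-protein genes LARP7 and MEPCE, and the recruiter genes AFF1 and AFF4. All 9 were found among the 23619 genes of the table, and all 9 passed the filter, a mean of at least 1 FPKM across the 12 libraries, that left 11381 genes to be tested. FPKM relates fragment counts to transcript length, so levels of different genes in the same library can be compared. How the deposited values were scaled between libraries is not given in the sources used here. The cells were MOLT4, a human line of T-cell acute lymphoblastic leukemia, and poly(A)-selected RNA was sequenced after 6 h of treatment. The 4 groups of 3 libraries each received 0.1% DMSO, the vehicle, or 250 nM of SNS-032, of its cereblon-recruiting derivative THAL-SNS-032, or of NVP-2. No genetic change is named for any group, and each compound was used at 1 dose and 1 time. Nothing in the labels ties replicate libraries to separate cultures, so a p-value here covers the spread between 3 libraries, which may be technical.

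The P-TEFb kinase phosphorylates RNA polymerase II and the factors that hold it paused shortly after initiation, which lets the polymerase enter productive elongation. Much of the cell's P-TEFb is kept inactive by HEXIM proteins on the 7SK small nuclear RNA, whose stability depends on LARP7 and MEPCE. Active P-TEFb is brought to genes by, among others, super elongation complexes built on AFF1 or AFF4. SNS-032 is an inhibitor that acts on CDK9 and on some other cyclin-dependent kinases, and NVP-2 is a more selective CDK9 inhibitor. THAL-SNS-032 carries SNS-032 on a linker to a thalidomide-like group that binds cereblon, the receptor subunit of a ubiquitin ligase, so that CDK9 protein can be marked for degradation. The comparisons ask how transcripts for P-TEFb and its partners stand after each compound, and whether adding the cereblon ligand or changing the inhibitor alters them. Protein levels were not analysed here.

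The table held no counts, so read depth is unknown. The ERCC spike-in entries were level between libraries, with median deviations between -0.025 and 0.049 (log2), whereas the genes were not. The median log2 FPKM of a library lay below the DMSO mean by -2.02 to -2.91 with SNS-032, -2.33 to -2.54 with THAL-SNS-032 and -3.24 to -3.49 with NVP-2. SNS-032 replicate 1 stood apart at -2.91, against -2.02 and -2.20 for the other two libraries of its group, and it was the lowest of its group for all 9 genes described here. Differences are given on the deposited scale, as differences in mean log2(FPKM + 1), a scale that understates the change of genes at low levels. The spike-in RNA was added at cell lysis and its entries are level, so these differences are relative to the spike-in. Cells were counted before isolation, but how many entered each sample is not given in the sources used here, so in this bulk RNA fewer cells and less RNA per cell cannot be told apart. The second reading given for each gene sets every library to the same median, and so shows each gene against the rest of the transcriptome. All 18 T-lineage markers were at 1 FPKM or more in DMSO. Of the markers of other cell types, only CD79A (9.07 FPKM) and KRT8 (1.39 FPKM) reached 1 FPKM there. The summed level of 4 myeloid markers was 0.823 to 0.976 FPKM in DMSO, 1.87 to 3.60 with SNS-032, 4.17 to 5.34 with THAL-SNS-032 and 0.514 to 0.626 with NVP-2, and its part in the results was not tested.

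Promoters are shown for CDK9, as the kinase itself, for CCNT1, the gene that differed most between compounds, and for HEXIM1, the only one of the 9 genes with a TATAAA box in a window. RefSeq (GRCh38.p14) gave 15 annotated starts for the 9 genes, and the 250 bases before each were read. Capitals mark TATAAA (the TATA box), GGGCGG (the core of an Sp1 site), CACGTG (an E-box) and CCAAT, on either strand. The windows are CDK9 at chr9:127785784-127786033 (plus strand), the upstream start of CCNT1 at chr12:48716708-48716957 (minus strand) and HEXIM1 at chr17:45148225-45148474 (plus strand).
CDK9: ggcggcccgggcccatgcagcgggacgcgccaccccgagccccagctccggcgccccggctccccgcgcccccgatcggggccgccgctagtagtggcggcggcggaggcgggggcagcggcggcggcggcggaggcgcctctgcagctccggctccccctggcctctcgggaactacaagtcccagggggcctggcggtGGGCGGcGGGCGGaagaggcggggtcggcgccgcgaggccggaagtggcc
CCNT1: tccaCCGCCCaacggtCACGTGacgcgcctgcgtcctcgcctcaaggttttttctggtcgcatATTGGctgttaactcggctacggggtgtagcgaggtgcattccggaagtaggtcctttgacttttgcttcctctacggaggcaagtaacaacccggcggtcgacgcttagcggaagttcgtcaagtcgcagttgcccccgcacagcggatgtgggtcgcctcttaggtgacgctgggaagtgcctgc
HEXIM1: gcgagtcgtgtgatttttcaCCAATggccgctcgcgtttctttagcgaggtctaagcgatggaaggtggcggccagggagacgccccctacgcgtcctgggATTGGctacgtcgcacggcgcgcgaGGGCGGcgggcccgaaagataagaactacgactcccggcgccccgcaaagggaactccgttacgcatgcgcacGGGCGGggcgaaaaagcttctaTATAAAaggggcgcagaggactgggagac
Of these windows, that of CDK9 was 82.0% G and C, against 59.2% for CCNT1, 62.4% for HEXIM1 and a median of 58.0% over 35116 windows of the same length. Its 2 GGGCGG matches lie 50 to 45 and 43 to 38 bases before the start. The CCNT1 window holds a single CACGTG, 234 to 229 bases before the start, and 1 match each of GGGCGG and CCAAT. In HEXIM1 the TATAAA lies 29 to 24 bases before the start, with 2 GGGCGG and 2 CCAAT matches further upstream. Among all windows, 10.7% held TATAAA, 42.6% GGGCGG, 6.34% CACGTG and 32.0% CCAAT. A match is a description of the letters and not a measured binding site, and the expression files, aligned to hg19, hold no promoter readout.

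In DMSO 3 genes of the inhibitory 7SK complex, MEPCE, LARP7 and HEXIM1, stood above the kinase and cyclin genes, whereas HEXIM2 stood last. MEPCE stood first at 130 ± 10.9 FPKM, followed by LARP7 at 111 ± 4.69 and HEXIM1 at 47.9 ± 3.77 (mean ± SD, n = 3, as throughout). CDK9 followed at 36.1 ± 4.16, CCNT1 at 26.8 ± 1.49, AFF1 at 25.9 ± 1.90, CCNT2 at 22.9 ± 1.29, AFF4 at 15.3 ± 1.01 and HEXIM2 at 12.7 ± 1.14. Neighbours in this order did not overlap between libraries, except CCNT1 and AFF1. The order changed in each treated group. With SNS-032 the cyclins came first, CCNT1 at 21.7 ± 6.47 and CCNT2 at 17.7 ± 5.12. All neighbouring ranks overlapped between libraries except MEPCE and HEXIM2, the last pair, with SNS-032 replicate 1 low for all 9 genes. Within each SNS-032 library the order was nevertheless CCNT1, CCNT2, LARP7, CDK9, AFF1 and HEXIM1, and AFF4 stood above MEPCE. Only the neighbours HEXIM1 and AFF4 changed order, in replicate 2 (7.56 and 7.59 FPKM). With THAL-SNS-032 the order was LARP7, CDK9, HEXIM1, CCNT1, AFF1, CCNT2, MEPCE, AFF4 and HEXIM2, with overlap between CDK9 and HEXIM1, between AFF1 and CCNT2, and between CCNT2 and MEPCE. With NVP-2 it was LARP7, MEPCE, HEXIM1, CDK9, AFF1, CCNT2, AFF4, CCNT1 and HEXIM2, with overlap between MEPCE and HEXIM1 and between AFF1 and CCNT2. Within each library, CCNT1 stood above AFF1 in DMSO and CDK9 above HEXIM1 with THAL-SNS-032. In each NVP-2 library MEPCE stood above HEXIM1 and AFF1 above CCNT2. AFF1 and CCNT2, and CCNT2 and MEPCE, changed order between THAL-SNS-032 libraries. HEXIM2 was last of the 9 in all 4 groups. CCNT1 moved from the middle of the order in DMSO to the first place with SNS-032 and to the last but HEXIM2 with NVP-2.

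**Figure D1:**
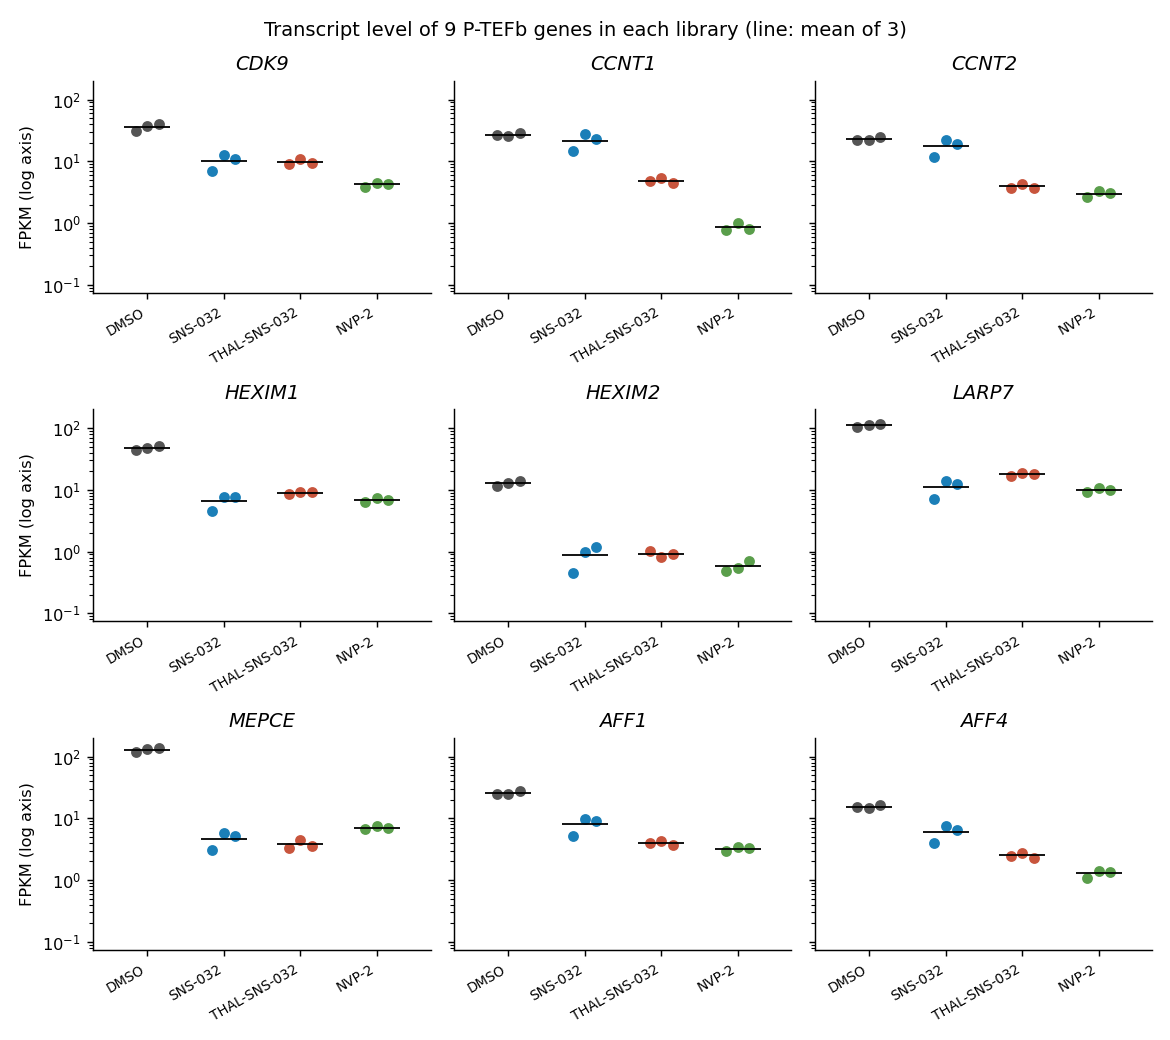
Level of each of the 9 genes in FPKM (log axis) in every library of the 4 groups, as points, with a line at the mean of 3. CCNT1 with SNS-032 overlaps the DMSO points, CCNT2 with SNS-032 lies just under them in 1 library and lower in the others, and CCNT1 with NVP-2 lies under 1 FPKM.

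Against DMSO, 7 of the 9 genes fell with SNS-032 and all 9 fell with NVP-2 and with THAL-SNS-032 (limma, Benjamini-Hochberg adjusted p under 0.05 over all tested genes). No gene of the 9 had a difference above 0 with any compound, where 1.54% of tested genes were called higher with SNS-032, 1.37% after THAL-SNS-032 and 0.448% after NVP-2. These counts stand beside a transcriptome in which 94.6% of tested genes were called lower with SNS-032, 94.8% after THAL-SNS-032 and 97.1% after NVP-2, so the direction is not particular to P-TEFb genes. All 3 treated libraries lay below all 3 DMSO libraries for 8 of the 9 genes with SNS-032 (94.8% of tested genes), for 9 with THAL-SNS-032 (95.9%) and for 9 with NVP-2 (97.8%). The median difference of the 9 was -1.76 with SNS-032, -2.28 after THAL-SNS-032 and -2.84 after NVP-2, beside -1.92, -1.90 and -2.54 over all tested genes. With libraries centred on their medians, 4 of the 9 were lower and 5 higher with SNS-032, 4 lower and 1 higher with THAL-SNS-032, and 3 lower and 5 higher with NVP-2. The backgrounds on that scale were 31.1% lower and 52.6% higher, 29.2% and 57.2%, and 28.1% and 59.7%, and the median gene itself stood at 0.25, 0.36 and 0.42. The size of the fall, however, differed widely within the group, from -0.34 for CCNT1 to -4.56 for MEPCE with SNS-032.

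**Figure D2:**
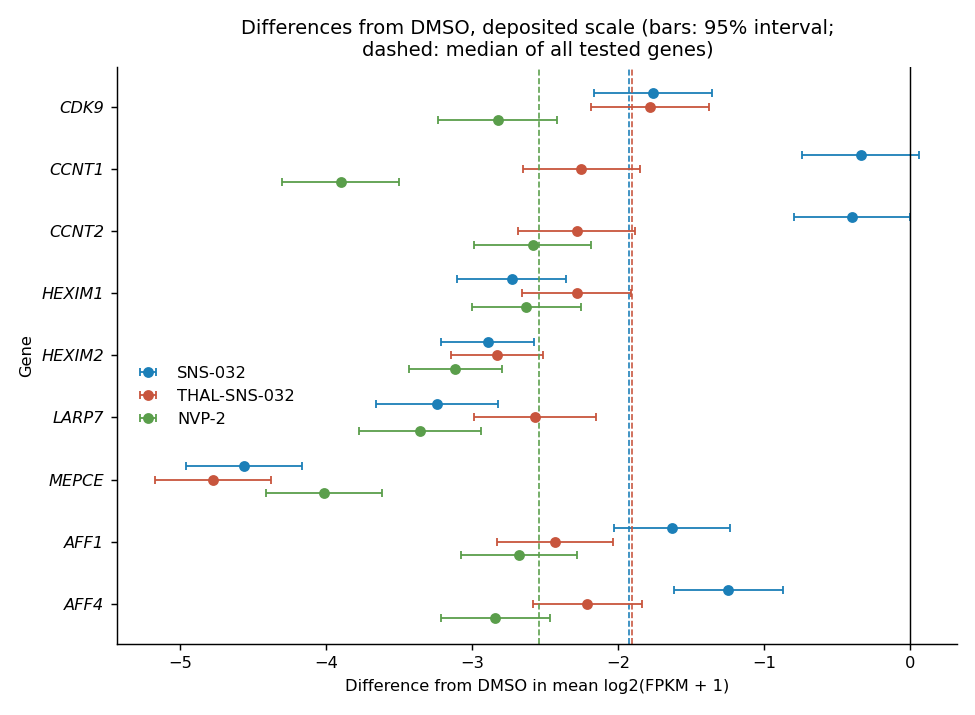
Difference of each gene from DMSO in mean log2(FPKM + 1), with its 95% interval, for the 3 compounds, and the median of all tested genes as dashed lines. With SNS-032 the intervals of both cyclins reach close to 0 or beyond, and MEPCE lies left of the median lines with every compound.

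CDK9, the catalytic subunit, fell with all 3 compounds and stayed near the median gene. Its level was 31.6, 37.0 and 39.7 FPKM in the DMSO libraries and 6.96, 12.8 and 10.8 with SNS-032. It was 8.93, 10.9 and 9.47 with THAL-SNS-032 and 3.80, 4.50 and 4.36 with NVP-2. All treated libraries lay below all DMSO libraries, and the NVP-2 libraries lay below all others. The mean level was 3.54-fold lower with SNS-032 (-1.76, SE 0.19, limma adjusted p = 3.19e-07), 3.69-fold lower with THAL-SNS-032 (-1.78) and 8.55-fold lower with NVP-2 (-2.83). After centring, CDK9 stood above the level it held in DMSO with each compound, by 0.41, 0.48 and 0.14. The median difference of all tested genes was 0.25, 0.36 and 0.42 on that scale, and with NVP-2 that of CDK9 lay below it. The rank of CDK9 within its library was nevertheless higher with NVP-2, at percentile 60.9 against 57.4 in DMSO.

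CCNT1 encodes cyclin T1, the main regulatory partner of CDK9, and of the 9 genes its levels lay furthest apart between compounds. DMSO libraries held 26.4, 25.5 and 28.4 FPKM. SNS-032 libraries held 14.6, 27.2 and 23.2 and so overlapped them. THAL-SNS-032 libraries held 4.78, 5.33 and 4.42, and NVP-2 libraries 0.788, 0.987 and 0.816. Each of the latter groups lay apart from every other group. The difference with SNS-032 did not pass (-0.34, SE 0.19, 95% interval -0.74 to 0.065, limma adjusted p = 0.0968), but it passed without SNS-032 replicate 2, the highest library (-0.52, adjusted p = 0.0112). Without SNS-032 replicate 1, the lowest library, it shrank to -0.087 (limma adjusted p = 0.392). Of all tested genes, 95.5% had a lower difference in that comparison. With THAL-SNS-032 CCNT1 was 5.53-fold lower (-2.25, limma adjusted p = 1.76e-08) and with NVP-2 31.0-fold lower (-3.90, limma adjusted p = 2.9e-11). The centred differences were 1.83 with SNS-032, 0.0053 with THAL-SNS-032, which did not pass, and -0.94 with NVP-2. On that scale the median gene stood at 0.25, 0.36 and 0.42.

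CCNT2 encodes cyclin T2, an alternative partner of CDK9. Its levels were 22.2, 22.2 and 24.4 FPKM in DMSO and 11.97, 21.8 and 19.3 with SNS-032, lower in all 3 libraries, though the highest by little. With THAL-SNS-032 they were 3.73, 4.35 and 3.71, and with NVP-2 2.60, 3.25 and 3.13. The SNS-032 difference narrowly failed the test (-0.40, SE 0.19, 95% interval -0.80 to 0.0041, limma adjusted p = 0.0542), and it passed without SNS-032 replicate 2 (-0.56) or replicate 3 (-0.48). Without SNS-032 replicate 1 it shrank to -0.15 (limma adjusted p = 0.156). With THAL-SNS-032 it was 5.84-fold lower (-2.28) and with NVP-2 7.66-fold lower (-2.59). Both cyclin genes thus stood close to one another with SNS-032 and THAL-SNS-032 but not with NVP-2, where CCNT1 fell much further. After centring, CCNT2 differed by 1.78, -0.025 and 0.37 from DMSO, and the second of these did not pass. On that scale the median gene stood at 0.25, 0.36 and 0.42.

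HEXIM1, the protein that inhibits P-TEFb when bound to 7SK RNA, fell with all 3 compounds. Its DMSO libraries held 44.8, 46.7 and 52.1 FPKM and its SNS-032 libraries 4.47, 7.56 and 7.55. The THAL-SNS-032 libraries held 8.65, 9.33 and 9.12 and the NVP-2 libraries 6.46, 7.45 and 6.77. The means were 7.34-fold, 5.30-fold and 6.94-fold lower than in DMSO, in that order of compounds (-2.73, -2.28 and -2.63, SE 0.17). After centring it was lower with SNS-032 (-0.56), not different by the test with THAL-SNS-032 (-0.024) and higher with NVP-2 (0.33). The median difference of all tested genes was 0.25, 0.36 and 0.42 on that scale, and that of HEXIM1 lay below it with each compound. This scale understates the change of genes at low levels, however. The rank of HEXIM1 within its library was higher with NVP-2, at percentile 71.7 against 65.4 in DMSO.

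HEXIM2, its less abundant paralogue, was left near 1 FPKM or under it by every compound. It was 11.5, 12.9 and 13.8 FPKM in the DMSO libraries, 0.449, 0.994 and 1.17 with SNS-032, 1.03, 0.829 and 0.920 with THAL-SNS-032, and 0.492, 0.547 and 0.709 with NVP-2. These levels were 14.6-fold, 13.7-fold and 21.8-fold below DMSO (-2.89, -2.83 and -3.11, SE 0.15), and the treated groups overlapped each other except for THAL-SNS-032 and NVP-2. The commonest value of a library, 0.091 to 0.104 FPKM, is shared by 4199 to 4211 genes, and HEXIM2 lay above it in every library. At these low levels the 1 added in log2(FPKM + 1) makes the log2 differences understate these ratios. RefSeq places the antisense RNA gene HEXIM2-AS1 over both HEXIM1 and HEXIM2. The libraries were stranded, but whether counting used the strand is not given in the sources used here, so a share of reads from it cannot be told apart.

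LARP7, which binds the end of 7SK RNA and protects it, held 106, 112 and 115 FPKM in DMSO. With SNS-032 it held 7.18, 13.8 and 12.6, with THAL-SNS-032 16.9, 18.6 and 18.0, and with NVP-2 9.10, 10.8 and 9.83. No treated library came near the DMSO libraries, and the THAL-SNS-032 libraries were higher than those of both other compounds. LARP7 was 9.89-fold lower with SNS-032 (-3.24, SE 0.20), 6.21-fold lower with THAL-SNS-032 (-2.57) and 11.2-fold lower with NVP-2 (-3.36). It was lower also after centring, by -1.07, -0.31 and -0.40.

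MEPCE, the methyltransferase that caps 7SK RNA, had the lowest difference of the 9 genes with each compound, although by ratio of means CCNT1 and HEXIM2 were further down with NVP-2. Its libraries held 118, 132 and 140 FPKM in DMSO and 3.06, 5.71 and 5.17 with SNS-032. With THAL-SNS-032 they held 3.29, 4.46 and 3.62, and with NVP-2 6.80, 7.56 and 6.87, the highest of the treated groups. The mean was 27.9-fold lower with SNS-032 (-4.56, SE 0.19, limma adjusted p = 2.46e-11), 34.2-fold lower with THAL-SNS-032 (-4.77) and 18.3-fold lower with NVP-2 (-4.01). Only 0.378%, 0.597% and 9.09% of tested genes had a lower difference in these comparisons. MEPCE was lower after centring as well, by -2.39, -2.52 and -1.05. It and LARP7 were the only genes of the 9 called lower with all 3 compounds on both scales.

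AFF1 and AFF4 are the large scaffold proteins on which super elongation complexes assemble around P-TEFb. AFF1 held 25.0, 24.6 and 28.1 FPKM in the DMSO libraries, 5.13, 9.72 and 9.001 with SNS-032, 3.93, 4.28 and 3.74 with THAL-SNS-032, and 2.92, 3.41 and 3.28 with NVP-2. AFF4 held 15.1, 14.4 and 16.4 in DMSO, 4.03, 7.59 and 6.53 with SNS-032, 2.48, 2.77 and 2.31 with THAL-SNS-032, and 1.09, 1.41 and 1.34 with NVP-2. For both genes the groups followed the same order, DMSO above SNS-032 above THAL-SNS-032 above NVP-2, without overlap. AFF1 was 3.26-fold, 6.50-fold and 8.08-fold lower than in DMSO (-1.63, -2.43 and -2.68, SE 0.19), and AFF4 was 2.53-fold, 6.07-fold and 11.97-fold lower (-1.24, -2.21 and -2.84, SE 0.17). After centring, AFF1 differed by 0.54, -0.17 and 0.28 and AFF4 by 0.93, 0.045 and 0.12, where only the 0.045 did not pass. The median difference of all tested genes was 0.25, 0.36 and 0.42 on that scale. The differences of both genes thus lay above it with SNS-032 and below it with THAL-SNS-032 and NVP-2. By rank within the library, AFF1 was higher with NVP-2 than in DMSO (percentile 54.3 against 47.8) and AFF4 lower (31.1 against 33.8). Annotated genes overlap part of AFF1, among them C4orf36, which has a row of its own in the table.

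The compounds were then compared at the same dose and time. THAL-SNS-032 and SNS-032 differ by the cereblon ligand and its linker. Of the 9 genes, 4 were lower and 1 higher with THAL-SNS-032, and 4 did not pass (limma, adjusted p under 0.05), beside 16.7% of all tested genes lower and 13.4% higher. The cyclins stood furthest apart: CCNT1 was 4.47-fold lower (-1.92, 95% interval -2.32 to -1.51, limma adjusted p = 3.44e-06) and CCNT2 4.51-fold lower (-1.89, -2.29 to -1.49). Of all tested genes, 2.42% and 2.58% had a lower difference than these. AFF4 (-0.97, SE 0.17, limma adjusted p = 0.0008) and AFF1 (-0.80, SE 0.19, adjusted p = 0.0048) were lower as well. LARP7 was higher (0.67, SE 0.20, limma adjusted p = 0.019), a call lost without THAL-SNS-032 replicate 2 (adjusted p = 0.0665) or replicate 3 (adjusted p = 0.0602). Without SNS-032 replicate 1 it was smaller and still passed (0.41).

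For the kinase gene itself no difference between SNS-032 and THAL-SNS-032 was detected, with a 95% interval of -0.43 to 0.39 around -0.022, and the libraries of the 2 groups overlapped. Without SNS-032 replicate 1 the difference was -0.25 and still did not pass. The intervals were -0.25 to 0.38 for HEXIM2 (0.063) and -0.61 to 0.18 for MEPCE (-0.21), neither of which passed, although MEPCE did without SNS-032 replicate 1 (-0.43, limma adjusted p = 0.00821). HEXIM1 was higher with THAL-SNS-032 in all 3 libraries (0.45, 95% interval 0.072 to 0.82, limma adjusted p = 0.0671), as were 25.5% of tested genes. It passed when any 1 SNS-032 library was left out: the difference was then 0.23 without replicate 1, 0.55 without replicate 2 and 0.55 without replicate 3.

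NVP-2 was compared with SNS-032 next. Of the 9 genes, 5 were lower with NVP-2, 1 was higher and 3 did not pass, where 52.6% of all tested genes were lower and 0.782% higher. CCNT1 was 25.1-fold lower (-3.56, SE 0.19, limma adjusted p = 3.18e-09), and only 0.879% of tested genes had a lower difference. CCNT2 was 5.91-fold lower (-2.19), AFF4 4.73-fold (-1.60), AFF1 2.48-fold (-1.05) and CDK9 2.42-fold (-1.07), beside a median of -0.48 over all tested genes. MEPCE went the other way, 1.52 times as high with NVP-2 (0.55, SE 0.19, limma adjusted p = 0.0219), with 99.2% of tested genes below it. That call was lost without any 1 of the NVP-2 libraries, where adjusted p was 0.0509, 0.0673 and 0.0526 and the difference 0.57, 0.51 and 0.57. Without SNS-032 replicate 1 the difference was 0.33 and passed. HEXIM1 (0.098, 95% interval -0.28 to 0.47), HEXIM2 (-0.22, -0.54 to 0.096) and LARP7 (-0.12, -0.54 to 0.30) did not pass. Without SNS-032 replicate 1, HEXIM2 (-0.40, limma adjusted p = 0.00308) and LARP7 (-0.38, adjusted p = 0.00185) were lower with NVP-2, and HEXIM1 still did not pass (-0.12).

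THAL-SNS-032 against NVP-2 gave 4 genes higher, 1 lower and 4 that did not pass, beside 70.0% of tested genes higher and 0.993% lower. CCNT1 was 5.61-fold higher with THAL-SNS-032 (1.65, SE 0.19), CDK9 2.32-fold (1.04), AFF4 1.97-fold (0.63) and LARP7 1.80-fold (0.79), with a median of 0.64 over all tested genes. MEPCE alone was lower, 1.87-fold (-0.76, SE 0.19, limma adjusted p = 0.00257), and 0.870% of tested genes had a lower difference. CCNT2 (0.30), HEXIM1 (0.35), HEXIM2 (0.29) and AFF1 (0.25) did not pass, although each was higher in all 3 THAL-SNS-032 libraries, as were 84.7% of tested genes. The spread is pooled over the 4 groups, and without SNS-032 replicate 1, a library outside this comparison, all 9 genes passed, 8 higher and 1 lower.

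**Figure D3:**
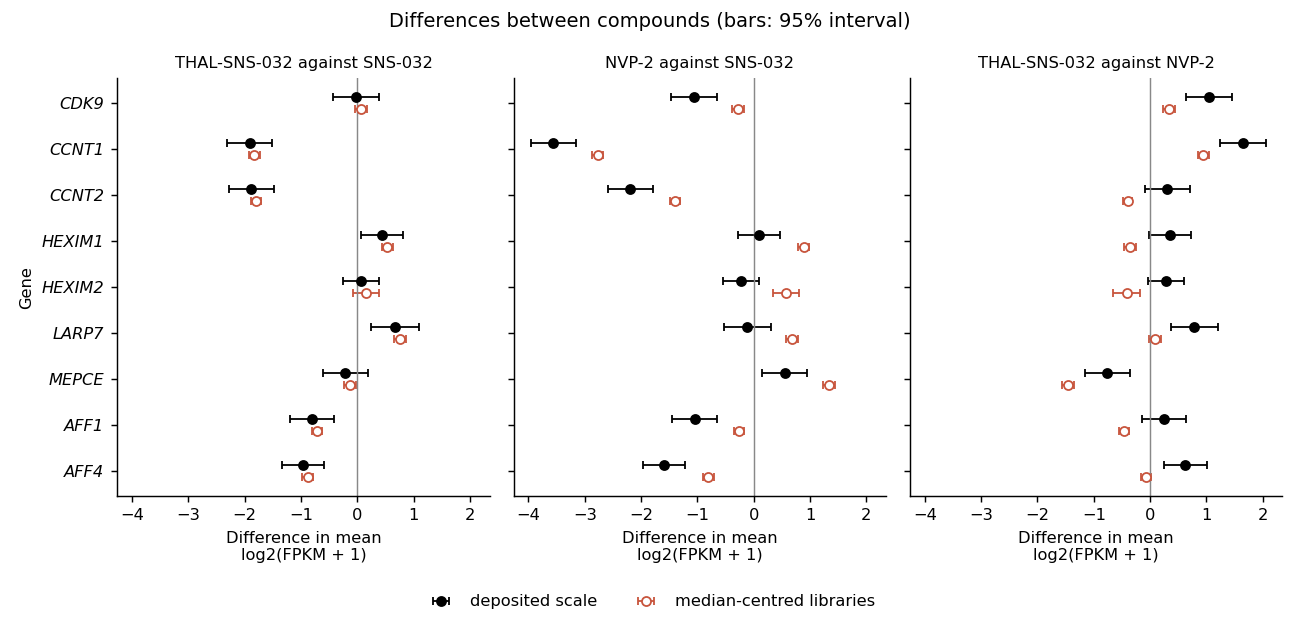
Difference of each gene between pairs of compounds in mean log2(FPKM + 1), with 95% intervals, on the deposited scale (filled) and with libraries centred on their medians (open). CCNT1 lies left of 0 in both comparisons with SNS-032 on both scales, and MEPCE alone lies left of 0 in the comparison of THAL-SNS-032 with NVP-2 on the deposited scale.

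Centring changed some of these comparisons. The median gene itself then stood at 0.22 for THAL-SNS-032 against SNS-032 and at 0.31 for NVP-2 against SNS-032. For THAL-SNS-032 against NVP-2 it stood at -0.065. On that scale 5 of the 9 genes were lower and 2 higher after THAL-SNS-032 than after SNS-032 (23.1% and 51.2% of tested genes), 5 lower and 4 higher with NVP-2 than with SNS-032 (24.8% and 58.9%), and 5 lower and 2 higher with THAL-SNS-032 than with NVP-2 (38.0% and 29.4%). CCNT1 remained lower after THAL-SNS-032 than after SNS-032 (-1.83) and lower with NVP-2 (-2.77), as did CCNT2 (-1.80 and -1.40), AFF1 (-0.72 and -0.26) and AFF4 (-0.88 and -0.81). HEXIM1, HEXIM2, LARP7 and MEPCE were all higher with NVP-2 than with SNS-032 (0.89, 0.57, 0.67 and 1.34). For THAL-SNS-032 against NVP-2, CCNT2, HEXIM1, HEXIM2 and AFF1 turned to lower with THAL-SNS-032 (-0.40, -0.36, -0.42 and -0.46).

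A ratio of 2 genes within a library does not move with the scale of that library, so 10 such ratios were compared between the groups. For 3 libraries against 3 the smallest p of an exact two-sided permutation test is 0.1, and 55 of 60 ratio comparisons reached it. The smallest adjusted p over the 60 was 0.109, so no ratio could pass a threshold of 0.05. Per FPKM of CDK9, CCNT1 stood at 0.837, 0.691 and 0.716 in DMSO, and at 2.09, 2.13 and 2.15 with SNS-032. It stood at 0.535, 0.488 and 0.467 with THAL-SNS-032, and at 0.208, 0.219 and 0.187 with NVP-2. The 4 groups did not overlap, and SNS-032 replicate 1 stood with the other two libraries of its group. In log2, the mean CCNT1/CDK9 ratio was -0.42 in DMSO, 1.09 with SNS-032, -1.01 after THAL-SNS-032 and -2.29 after NVP-2. CCNT2/CDK9 was -0.65, 0.80, -1.32 and -0.50 in the same order, with overlap between DMSO and NVP-2.

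The ratio of the cyclins to each other, CCNT2/CCNT1, was -0.22 in DMSO, -0.29 with SNS-032, -0.30 after THAL-SNS-032 and 1.80 after NVP-2 (mean log2). It overlapped between SNS-032 and THAL-SNS-032, whose difference of -0.013 gave an exact permutation p of 0.7. CCNT1 was the more abundant cyclin transcript in 3 groups, and CCNT2 the more abundant with NVP-2. HEXIM1/CDK9 was 0.41, -0.64, -0.11 and 0.71, so that NVP-2 alone had more HEXIM1 per CDK9 than DMSO. HEXIM2/HEXIM1 was -1.91 in DMSO and -2.98, -3.29 and -3.58 with the compounds, which overlapped each other.

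MEPCE/CDK9 was 1.85 in DMSO, -1.14 with SNS-032, -1.38 after THAL-SNS-032 and 0.75 after NVP-2 (mean log2), and LARP7/CDK9 was 1.62, 0.12, 0.87 and 1.23. The transcripts of the capping enzyme, more abundant than those of the kinase in DMSO and NVP-2, were thus less abundant than those of the kinase with SNS-032 and THAL-SNS-032. MEPCE/LARP7 was 0.23, -1.26, -2.24 and -0.49, without overlap between groups. AFF1/AFF4 was 0.76, 0.39, 0.66 and 1.33, and AFF4/CDK9 was -1.23, -0.76, -1.96 and -1.73, each without overlap.

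**Figure D4:**
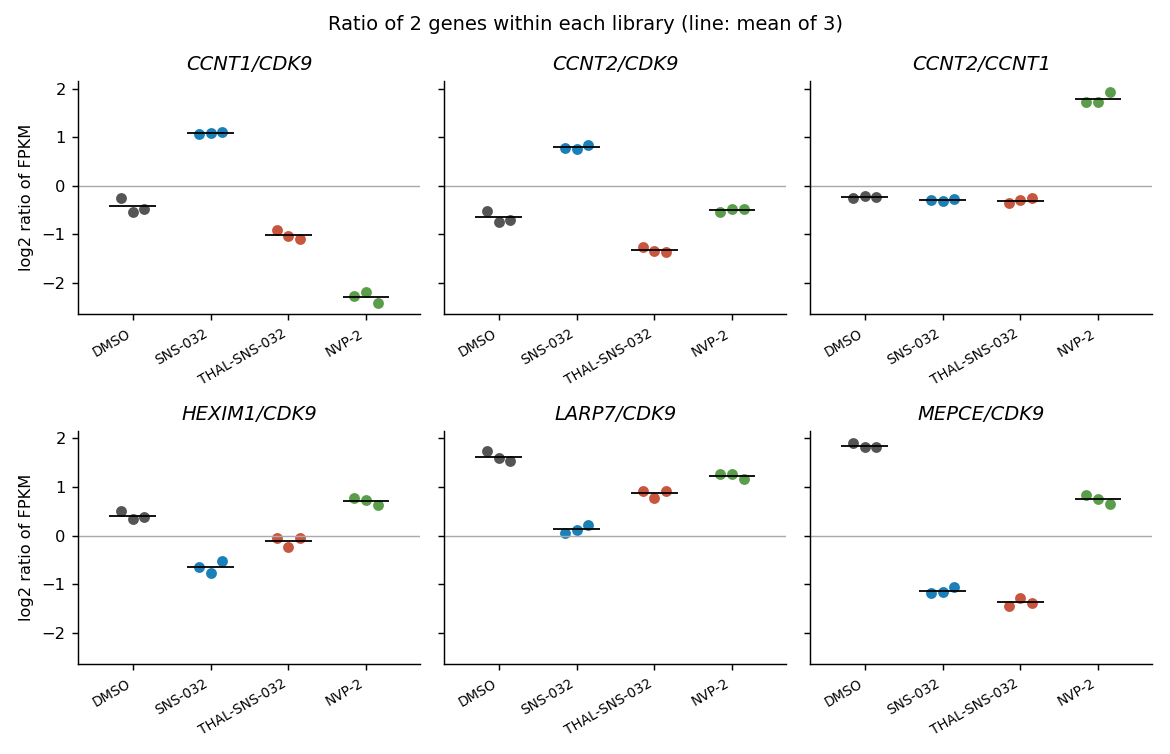
Log2 ratio of FPKM of 2 genes in each library of the 4 groups, as points, with a line at the mean of 3, for 6 of the 10 ratios. CCNT1/CDK9 is above 0 with SNS-032 alone, CCNT2/CCNT1 is above 0 with NVP-2 alone, and MEPCE/CDK9 is below 0 with SNS-032 and THAL-SNS-032.

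The rank of a gene among the 11381 tested genes of its own library gives the same view without a partner gene. CCNT1 ranked at percentile 48.9 ± 1.16 in DMSO, 79.9 ± 0.703 with SNS-032, 49.1 ± 0.969 after THAL-SNS-032 and 22.1 ± 1.57 after NVP-2. CCNT2 ranked at 44.2, 76.2, 44.0 and 52.6, so both cyclins overlapped their DMSO ranks with THAL-SNS-032. MEPCE ranked at 86.0 in DMSO, 45.7 with SNS-032, 43.1 after THAL-SNS-032 and 72.3 after NVP-2. Over the 4 groups together CDK9 spanned the narrowest range among the subunits of P-TEFb, at 57.4, 64.8, 65.6 and 60.9. With THAL-SNS-032, however, it moved further from its DMSO rank than either cyclin. LARP7 ranked at 83.7, 66.8, 77.1 and 78.3, HEXIM1 at 65.4, 54.1, 63.9 and 71.7, and HEXIM2 at 29.4, 10.1, 12.9 and 14.2. AFF1 ranked at 47.8, 58.7, 44.4 and 54.3 and AFF4 at 33.8, 52.2, 33.0 and 31.1. Only the elongation complex scaffolds, the cyclins and CDK9 ranked higher with SNS-032 than in DMSO.

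**Figure D5:**
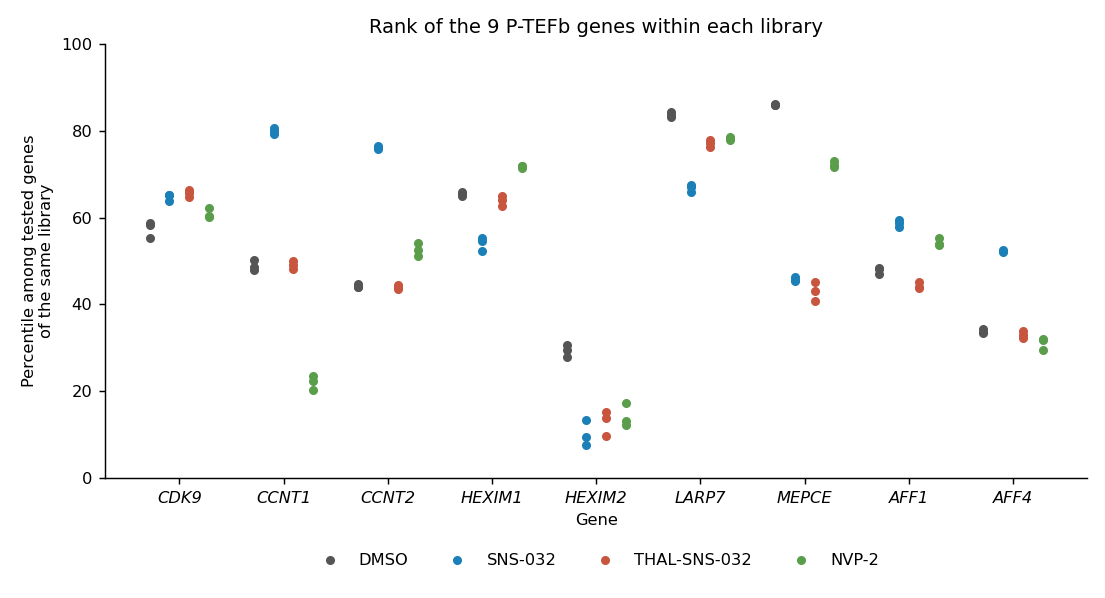
Percentile of each of the 9 genes among the tested genes of the same library, as 1 point per library, for the 4 groups. CCNT1 spreads from 20.3 with NVP-2 to 80.6 with SNS-032, and MEPCE from 40.9 with THAL-SNS-032 to 86.1 in DMSO.

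Similarity was measured as the root mean square distance over the 12 libraries of log2(FPKM + 1) relative to the DMSO mean, a description with no test in which all genes share the scale of each library. Among the 9 genes, AFF1 and AFF4 were closest to each other (0.24), then HEXIM2 and LARP7 (0.27), and CCNT2 and MEPCE were farthest apart (2.53). The cyclins lay 0.66 apart, and CDK9 lay 0.92 from CCNT1 and 0.74 from CCNT2, farther than from AFF4 (0.34). Among all other tested genes the nearest to CDK9 were SSR2, DHX30 and DDX56, at 0.054 to 0.058. The nearest to CCNT1 was PCF11, which encodes a factor of transcript cleavage and termination, at 0.11, with differences from DMSO of -0.17 with SNS-032, -2.21 after THAL-SNS-032 and -3.95 after NVP-2. DYRK1A and ZNF574 followed at 0.20. CCNT2 was nearest to FOXN2 (0.10), PAPD7 and USPL1, HEXIM1 to DYNC1I2 (0.050), PRPSAP2 and GLMN, and HEXIM2 to NAP1L2 (0.084), PTCD2 and WDR55. LARP7 was nearest to COPS5 (0.072), ZC3H8 and RRP7B, AFF1 to PPP1R12A (0.069), ARHGAP29 and RNF111, and AFF4 to PRPF39 (0.069), LRCH1 and PLCL2. For MEPCE the nearest genes, SMG9, GCLC and PRMT6, lay at 0.29 to 0.36.

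The pausing factors, which P-TEFb acts on, are the NELF subunits and SUPT4H1 and SUPT5H, the subunits of DSIF. All 6 were tested and all 6 fell with each compound (limma), with medians of -2.10 with SNS-032, -1.68 after THAL-SNS-032 and -2.63 after NVP-2. That count is near the background of 94.6%, 94.8% and 97.1% of tested genes called lower, and the medians stand beside -1.92, -1.90 and -2.54 over all tested genes. NELFA fell furthest (-2.78, -2.90 and -3.84) and SUPT5H least (-1.43, -1.48 and -2.15). NELFCD was the most abundant in DMSO, at 269 ± 30.3 FPKM, with differences of -1.91, -1.66 and -2.26. Between THAL-SNS-032 and SNS-032, NELFE (0.56) and SUPT4H1 (0.59) were higher with THAL-SNS-032, as were 13.4% of tested genes, and the other 4 did not pass.

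Of 9 other proteins of super elongation complexes, 7 were tested, and all 7 fell with each compound, a count near the same background of 94.6%, 94.8% and 97.1%. ELL2 and AFF2 were under 1 FPKM on average. The medians were -1.65, -1.91 and -2.82, beside the -1.92, -1.90 and -2.54 of all tested genes. EAF2, a partner of the elongation factor ELL, fell furthest: its level was 39.1, 37.4 and 43.1 FPKM in DMSO and 1.25, 1.20 and 1.52 with SNS-032. With THAL-SNS-032 it was 1.26, 0.720 and 0.794, and with NVP-2 1.97, 2.06 and 2.24, so that, as for MEPCE, the NVP-2 libraries were the highest of the treated ones. Its differences were -4.14, -4.42 and -3.72. The smallest falls were those of ELL with SNS-032 (-0.54, SE 0.19, limma adjusted p = 0.0152) and of AFF3, a paralogue of AFF4, with THAL-SNS-032 (-0.70) and NVP-2 (-1.83). MLLT1, the most abundant in DMSO (58.1 ± 6.74 FPKM), differed by -1.92, -1.85 and -3.21. ELL (-1.37) and EAF1 (-1.36) were lower after THAL-SNS-032 than after SNS-032, as AFF1, AFF4 and 16.7% of tested genes were, and the other 5 did not pass.

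Factors reported to release P-TEFb from 7SK or to recruit it to chromatin made up the last list, with 13 genes, all tested. With SNS-032 12 of them fell and 1 did not pass, and with THAL-SNS-032 and NVP-2 all 13 fell, with medians of -2.24, -2.23 and -3.32. The counts again lie near the background of 94.6%, 94.8% and 97.1%, with medians of -1.92, -1.90 and -2.54 over all tested genes. BRD2, a bromodomain protein, fell furthest with THAL-SNS-032 (-3.77) and NVP-2 (-4.50), and SYNCRIP, an RNA-binding protein, with SNS-032 (-3.12). HNRNPA1, the most abundant in DMSO at 2526 ± 259 FPKM, differed by -1.92, -1.56 and -2.37. Between THAL-SNS-032 and SNS-032, 4 were lower with THAL-SNS-032, among them BRD2 (-1.53), SRSF2 (-0.79) and JMJD6 (-0.72), SYNCRIP was higher (0.94), and the other 8 did not pass, beside 16.7% of tested genes lower and 13.4% higher.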

How the data were processed

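Per the labels' protocols, cells were counted, ERCC spike-in RNA was added at lysis, and stranded libraries were prepared from poly(A) RNA. Per the submitters' processing notes, the authors used HISAT, Cufflinks 2.0.0 and the hg19 build. The annotation, strand setting and scaling are not given in the sources used here. The deposited table gives FPKM for 23713 entries. Removing 92 ERCC entries and 2 repeated symbols (the higher entry was kept) left 23619 genes, 26 with names turned into dates.

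From the deposited FPKM, log2(FPKM + 1) was computed without further scaling. Genes that averaged at least 1 FPKM across the 12 libraries entered 1 limma 3.58.1 fit (R 4.3.3, trend, 4 groups, 8 residual degrees of freedom), which gave 6 two-sided comparisons with Benjamini-Hochberg adjustment over 11381 genes. The fit was tested on simulated data. Fold values are ratios of mean FPKM. Ratios of 2 genes were tested by exact two-sided permutation (Python 3.11.15, scipy 1.17.1), and figures were drawn with matplotlib 3.10.9. Same-numbered libraries of different groups were checked for pairing: 1 of 18 pairs correlated above 0.1, and 5 of 12 libraries matched best with their own number, so the fit has no replicate block.

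The 9 genes and the lists were chosen with earlier results of these data known. From each list the most abundant gene in DMSO, the largest and smallest differences from DMSO and all genes not called were named, apart from 1 gene that is not reported here, and for each of the 9 genes the 3 most similar genes. Genes named for differences between compounds were added after their values were seen. Alternatives were other pseudocounts (0.1, 5), filters (none, 5 FPKM), libraries centred on their medians or set to equal ERCC medians, limma with no trend or with its robust option, fits to the 6 libraries compared, a replicate block, a 2-fold minimum and each library left out. Centring without SNS-032 replicate 1 was added after seeing the data. The 7SK RNA itself was not analysed here.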

Additional observations from a re-analysis of the deposited data

How the results depend on the processing

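Read depth is unknown, so the precision of low values rests on the spread of 3 libraries alone. The direction of many differences depends on whether libraries are kept on the deposited scale or centred on their medians. Centring turned the differences from DMSO of CDK9 (0.41), CCNT1 (1.83), CCNT2 (1.78), AFF1 (0.54) and AFF4 (0.93) with SNS-032, of CDK9 (0.48), CCNT1 (0.0053) and AFF4 (0.045) with THAL-SNS-032, and of CDK9 (0.14), CCNT2 (0.37), HEXIM1 (0.33), AFF1 (0.28) and AFF4 (0.12) with NVP-2. Between compounds it turned CDK9 for THAL-SNS-032 against SNS-032 (0.064), HEXIM2 (0.57) and LARP7 (0.67) for NVP-2 against SNS-032, and CCNT2 (-0.40), HEXIM1 (-0.36), HEXIM2 (-0.42), AFF1 (-0.46) and AFF4 (-0.076) for THAL-SNS-032 against NVP-2. Centring without SNS-032 replicate 1 gave 0.42, 1.86, 1.80, 0.58 and 0.93 for the first 5 of these, 0.057 for CDK9 between THAL-SNS-032 and SNS-032, and 0.61 for HEXIM2 and 0.63 for LARP7 between NVP-2 and SNS-032. These reversals follow from subtracting the median level of each library. Against DMSO that level fell further than the median gene, which still stood at 0.25, 0.36 and 0.42 after centring. Some genes that fell further than the median gene thus turned as well.

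Of the 9 genes, those called with THAL-SNS-032 against DMSO went from 9 to 5 after centring. For THAL-SNS-032 against NVP-2 the count went from 5 to 9 with only the 6 libraries compared and ranged from 5 to 9 with 1 library left out (9 without SNS-032 replicate 1, which then no longer adds to the pooled spread). A 2-fold minimum left 2 calls in that comparison and 2 of 5 for THAL-SNS-032 against SNS-032. Leaving out 1 library moved the small differences across 0 for CDK9 (-0.25 to 0.15) and HEXIM2 (-0.11 to 0.18) between THAL-SNS-032 and SNS-032, and for HEXIM1 (-0.12 to 0.21) and LARP7 (-0.38 to 0.045) between NVP-2 and SNS-032. The CCNT2/CCNT1 ratio between THAL-SNS-032 and SNS-032 ranged from -0.038 to 0.014 (log2) and was 0.028 with a pseudocount of 1, which also turned HEXIM2/HEXIM1 between THAL-SNS-032 and NVP-2 (-0.062). CCNT2 with SNS-032 passed with a pseudocount of 5 (limma adjusted p = 0.0361), a filter at 5 FPKM (0.0469), equal ERCC medians (0.0424) and robust limma (0.046). With only the 6 libraries compared, LARP7 between THAL-SNS-032 and SNS-032 (adjusted p = 0.102) and MEPCE between NVP-2 and SNS-032 (adjusted p = 0.134) were lost. HEXIM2 has no value with the filter at 5 FPKM.

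The replicate numbers of different groups did not pair the libraries, with correlations from -0.15 to 0.17. With a replicate block, 8, 9 and 9 of the 9 genes were called for SNS-032, for THAL-SNS-032 and for NVP-2 against DMSO, and 6 in each comparison between compounds. CCNT2 with SNS-032 (limma adjusted p = 0.0272) and HEXIM1 for THAL-SNS-032 against SNS-032 (0.03) and against NVP-2 (0.0464) then passed, and no other gene changed its call. Limma without trend, a pseudocount of 0.1 and no filter changed no call of the 9 genes.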
